A study of Mus musculus with 11 samples.

Results

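The replication-dependent histone genes of the mouse were examined as one module in 11 ChIP-Seq libraries. Its 66 members are all protein-coding genes of the GENCODE vM1 annotation (mm9 genome build) whose symbol begins with Hist1h, Hist2h or Hist3h, of 22367 protein-coding genes on chromosomes 1 to 19, X and Y. Of these members 6 encode the linker histone H1, 19 encode H2A, 18 encode H2B, 11 encode H3 and 12 encode H4. The rule used names and positions only, not ChIP signal, but it was set with earlier results of these data known.

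Replication-dependent histone genes supply the bulk of the histones that package newly copied DNA, and they are transcribed mainly in S phase. Most have no intron, and their mRNA ends in a conserved stem-loop, bound by SLBP, in place of a poly(A) tail. The genes lie in clusters that gather with NPAT in the histone locus body, a nuclear compartment for their transcription and 3′ end processing. The tagged proteins mapped here are different histones: H3.3 is a replacement variant of H3 that is deposited outside S phase as well as during it, and MacroH2A2 is an H2A variant with a large carboxy-terminal macro domain. The libraries therefore show how 2 variant histones occupied the genes that make the canonical ones.

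All inducible cells derived from KH2 mouse ES cells (129 X C57bl/6), which carry the M2rtTA transactivator at ROSA26. A cassette inserted downstream of Col1a1 expresses an HA-tagged histone cDNA from a tetracycline operator and minimal CMV promoter once doxycycline (Dox) is added at 2 µg/mL. HA-H3.3 inducible ES cells were mapped with an HA antibody after 3 and 6 hours of Dox. HA-MacroH2A2 (HA-Macro) inducible ES cells were mapped with no treatment and after 3, 6 and 12 hours, and HA-Macro inducible mouse embryonic fibroblasts (MEFs), taken from chimeric embryos and selected with puromycin against host cells, after 3, 6 and 12 hours. A MacroH2A2 antibody (anti-Macro) was used on parental ES(KH2) cells and on wild type MEFs, both labelled as untreated. The study's text also speaks of anti-Macro maps of induced HA-Macro cells, so whether these libraries hold tagged protein is not settled. The ES cells were grown on feeder MEFs and pre-plated to deplete them. Neither the MEFs nor the HA-H3.3 cells have a library without Dox among the 11, and there is 1 library per condition. No test across samples was run: differences are given with 95% intervals that cover counting error only, and the spread between replicates is not known.

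The libraries hold 6488112 to 20541627 mapped intervals, of which 6448310 to 19869559 are distinct and lie on the chromosomes used. The unit is the number of midpoints of distinct intervals per kb of window, scaled to the library's total of such intervals (p.p.m.). The mean over the genome is then 0.391 p.p.m. per kb in every library, and a level of 1 times the genome mean is no enrichment. A gene window is the gene with 500 bp on each side, and a coding window is the coding sequence with 500 bp on each side. Both HA-H3.3 libraries and both anti-Macro libraries hold intervals of 400 bp, and the HA-Macro libraries hold intervals of 150 bp. The HA-Macro ES library at 3 hours stands apart in its share of intervals on chromosome Y, 0.112% against 0.0219% to 0.0244% in the other ES HA-Macro libraries, so the main levels and ratios that use it are also given from the 6 hour time point.

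The members lie in 3 clusters. The Hist1 cluster on chromosome 13 splits, at gaps over 100 kb, into a block of 18 members (chr13:21807632-21929399), a block of 5 (chr13:22126982-22135545), a block of 29 (chr13:23622919-23856283) and the pair Hist1h2ba and Hist1h2aa (chr13:24025637-24026720), while Hist1h2al lies far from them at chr13:51298057-51298434. Hist2 holds 9 members (chr3:96023839-96082924) and Hist3 holds 2 (chr11:58762413-58770176). The coding sequence is in 1 exon in 65 of the 66 members, Hist2h2bb being the exception. The median annotated length is 530 bp, but Hist1h2be is annotated over 37383 bp, nearly all of it outside the coding sequence.

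The DNA elements that mark these genes were present in the mm9 sequence. A perfect stem of 6 and 6 bases around a loop of 4 was found within 150 bases after the stop codon in 62 of 65 members, at a median distance of 33 bases. The commonest forms are shown because they identify the class; capitals mark the stem.
Stem-loop of 39 members: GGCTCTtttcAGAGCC
Stem-loop of 9 members, among them Hist1h1t and Hist1h3c: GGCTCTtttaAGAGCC
Stem-loop of 7 members, all H4: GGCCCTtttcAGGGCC
No such stem was found after Hist2h2be, Hist1h2an or Hist1h2al. All H4 members had a form other than the most common one.

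In 12 places an H2A and an H2B gene stand head to head and share the DNA between them. The sequences between the annotated starts of 3 such pairs are printed because the HA-Macro libraries held few intervals over this stretch. Averaged over the 12 pairs, HA-Macro in ES cells at 3 hours had 0.151 and 0.101 p.p.m. per kb in the 100 bp bins beside the midpoint between the coding sequences. In the bins 450 bp away it had 3.57 and 3.72. Over the 65 members with 1 coding exon, a trough 150 bp before the coding start was also present without Dox (0.26, against 0.269 at 3 hours). Each sequence reads from the H2B gene to the H2A gene, and capitals mark the octamer ATTTGCAT, CCAAT and TATAAA on either strand.
Hist2h2be to Hist2h2ac, chr3:96024804-96025043, minus strand: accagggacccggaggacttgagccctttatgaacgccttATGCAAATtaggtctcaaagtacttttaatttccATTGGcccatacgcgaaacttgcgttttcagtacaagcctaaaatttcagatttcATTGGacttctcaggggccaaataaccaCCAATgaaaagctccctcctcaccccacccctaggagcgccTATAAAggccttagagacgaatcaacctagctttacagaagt
Hist1h2bg to Hist1h2ae, chr13:23663090-23663264, minus strand: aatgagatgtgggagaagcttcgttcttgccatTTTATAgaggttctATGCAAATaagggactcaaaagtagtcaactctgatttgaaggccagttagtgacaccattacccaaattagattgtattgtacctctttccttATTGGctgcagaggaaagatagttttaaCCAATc
Hist1h2bf to Hist1h2ad, chr13:23666066-23666249, plus strand: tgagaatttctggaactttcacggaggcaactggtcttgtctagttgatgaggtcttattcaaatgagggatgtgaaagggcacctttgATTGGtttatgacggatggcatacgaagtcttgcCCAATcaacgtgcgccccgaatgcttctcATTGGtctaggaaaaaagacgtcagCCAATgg
The first and second pairs carry every motif searched, and the third carries CCAAT alone. Over the 250 bases before and 50 after each gene's start, ATTTGCAT occurred in 22.7% of members against 1.73% of all protein-coding genes, in 8 of 18 H2B and 7 of 19 H2A genes and in 0 H1, H3 or H4 genes. CCAAT occurred in 86.4% of members against 37.9% of all, with only 4 of the 12 H4 genes, and TATAAA in 57.6% against 13.4%. Promoters shared by a pair count for both genes.

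How reads from near-identical copies were placed sets what can be read from this module. Over the coding windows, a median of 28.9% of 32 bp words occur elsewhere in the genome, from 0% in Hist1h1t to 100% in Hist1h2ao, Hist1h2ap, Hist1h2bq and Hist1h2br. By class the median was 6.12% for H1, 18% for H4, 26.1% for H3, 34.1% for H2B and 34.4% for H2A. The study's methods state that a read with several locations was given 1 of them at random, so that near-identical copies share reads at random. In the 7 HA-Macro libraries every such copy had intervals. Over the coding windows, Hist1h2ao and its copy Hist1h2ap had 30 and 30 in ES cells at 3 hours, and Hist1h2bq and Hist1h2br had 25 and 34. Copies were less even in some MEF libraries: Hist1h2ao and Hist1h2ap had 9 and 3 at 6 hours, Hist1h4m and Hist1h4n 9 and 1, and Hist2h2aa1 and Hist2h2aa2 17 and 6 at 3 hours. In the HA-H3.3 and anti-Macro libraries all 4 of these genes had 0 intervals in every library. Hist1h4m and Hist1h4n, 93.5% and 93.4% repeated, had 0 to 1 intervals there except for 11 over Hist1h4n in HA-H3.3 at 6 hours. Of 263 bins of 10 kb across and around Hist1, 12 were under 0.05 p.p.m. per kb in all 4 of the 400 bp libraries, and the HA-Macro libraries held 0.143 to 0.681 in the same bins.

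**Figure D1:**
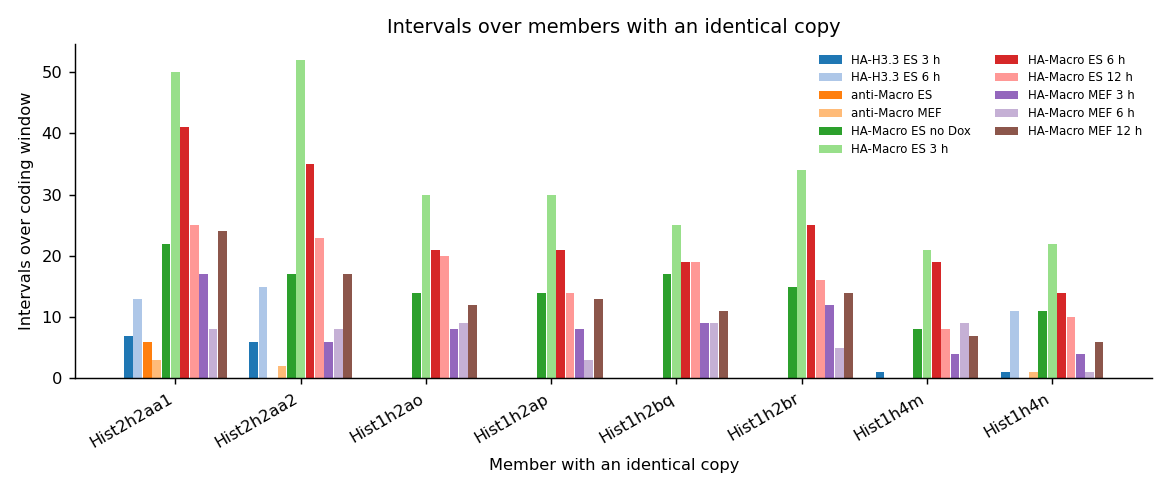
Distinct intervals (y axis) over the coding window of each member that has an identical copy (x axis), 1 bar per library. The 7 HA-Macro libraries have bars at every gene, while the HA-H3.3 and anti-Macro libraries are at 0 over Hist1h2ao, Hist1h2ap, Hist1h2bq and Hist1h2br.

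Across the 65 members with 1 coding exon, the share of repeated words had a Spearman correlation of -0.55 with HA-H3.3 at 6 hours and -0.59 with anti-Macro in ES cells, but 0.38 with HA-Macro at 3 hours and 0.40 with HA-Macro without Dox. These are descriptions over genes that share libraries and sequence. Levels in the 4 libraries with 400 bp intervals are therefore given below also for the 18 members under 20% repeated words (6 H1, 2 H2A, 3 H2B and 7 H4 genes), and levels of the 2 kinds of library are not set against each other gene by gene. What was done with repeated reads in the 4 libraries is not stated apart from the methods' description.

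HA-H3.3 was high over the module. Pooled over all gene windows its level was 2.46 times the genome mean at 3 hours and 4.59 times at 6 hours, and over the coding windows 3.43 and 6.43 times. The members under 20% repeated words stood at 5.01 times (95% interval 4.47 to 5.59) and 8.99 times (8.42 to 9.58) over coding windows, against 1.23 and 2.29 times for the 12 members with at least 50% repeated words. In a common window from 500 bp before to 1000 bp after the transcription start site (TSS), the median member had 6.48 times the genome mean at 6 hours and the median of all protein-coding genes 3.52 times. Of the members, 52 of 66 were above the median of all genes.

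**Figure D2:**
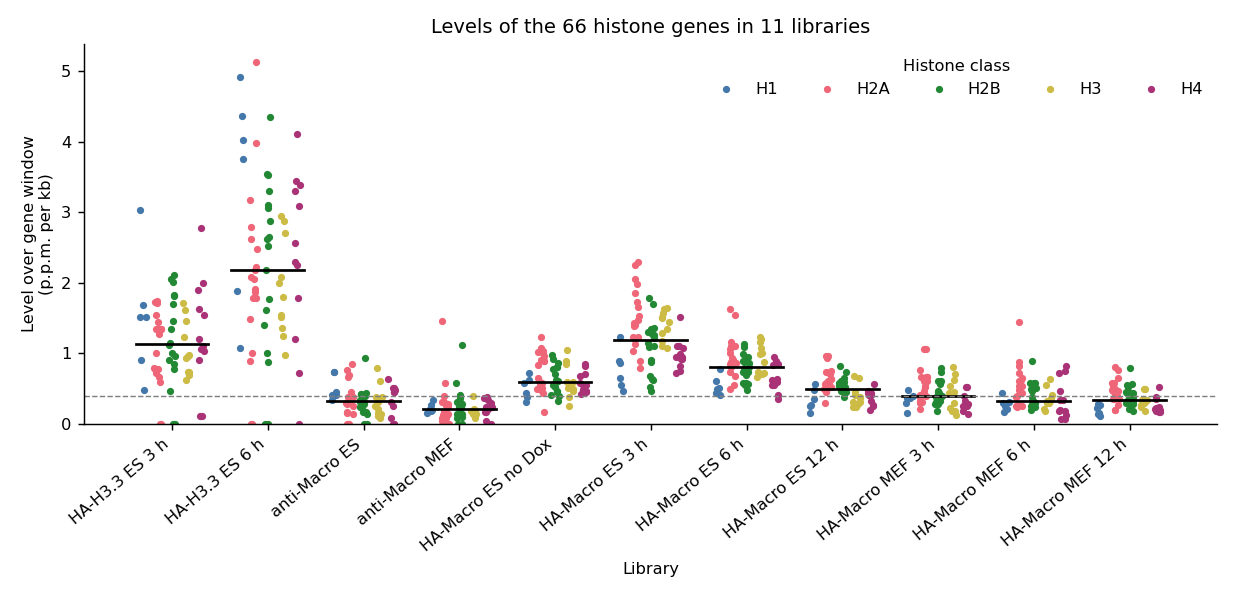
Level over the gene window of each of the 66 members (points, coloured by histone class; p.p.m. per kb) in each of the 11 libraries (x axis), with the median as a bar and the genome mean of 0.391 as a dashed line. HA-H3.3 at 6 hours reaches 5.13, and the HA-Macro ES libraries descend from 3 to 12 hours.

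The linker histone genes carried the most HA-H3.3 by class. H1 coding windows had 10.2 times the genome mean at 6 hours, H2B 6.31, H4 6.30, H2A 5.38 and H3 5.01, an order in which the H1 genes also have the fewest repeated words. The highest members by gene window were Hist2h2ac, an H2A gene, at 5.13 p.p.m. per kb, Hist1h1c, which encodes the linker histone H1.2, at 4.92, and Hist1h1b, which encodes H1.5, at 4.36. Their 3 hour levels were 1.73, 3.03 and 1.51. Hist1h1c was thus already the highest member at 3 hours. The testis-specific linker gene Hist1h1t, which has no repeated words, had 0.487 at 3 hours and 1.08 at 6 hours, the lowest of the H1 genes at 3 hours and at 6 hours. Hist3h2a and Hist3h2ba on chromosome 11 had 3.17 and 3.3 at 6 hours.

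Between 3 and 6 hours the HA-H3.3 level over the module went up relative to the genome mean. The pooled log2 ratio was 0.90 (95% interval 0.80 to 1.01; 3084 against 999 intervals), and it was 0.92 (0.74 to 1.09) for the members under 20% repeated words. In the TSS window, 27 of the 61 members with at least 10 intervals were 2-fold or more higher, beside 22.6% of all protein-coding genes, and 0 were 2-fold lower, beside 3.64%. The median was 0.90 for members and 0.57 for all genes. The ratio hardly depended on class: over coding windows it was 1.02 for H1, 1.00 for H3, 0.91 for H2A, 0.89 for H2B and 0.79 for H4, with overlapping intervals. The order of members was much the same at both times (Spearman 0.84 over 65 members, which share the repeated words). Hist1h3c, an H3 gene, had a ratio of -0.34 (-1.46 to 0.83) from 17 against 13 intervals.

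HA-Macro gave the clearest time course. Over all gene windows in ES cells the level was 1.34 times the genome mean in untreated cells, then 2.31, 1.76 and 1.25 times after 3, 6 and 12 hours of Dox. Over coding windows the same series was 1.64, 3.09, 2.06 and 1.26. The level was thus highest at the first time point and, over coding windows, lower at 12 hours than in the untreated cells. The members under 20% repeated words had 1.52, 2.59, 1.66 and 1.05 times.

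The HA-Macro signal was highest over the short coding sequences. At 3 hours coding sequences had 6.64 times the genome mean, the 500 bp before them 1.36 and the 500 bp after them 1.96. In the untreated cells the same regions had 3.35, 0.870 and 1.04, so a peak over coding sequences was also present without Dox. At 6 hours they had 4.09, 1.08 and 1.34. At 12 hours they had 2.60, 0.487 and 0.721, and the upstream region, where the promoters lie, was then below the genome mean. In 100 bp bins, HA-Macro at 3 hours reached 3.24 p.p.m. per kb at 250 bp after the start of the coding sequence and dropped to 0.269 at 150 bp before it. All protein-coding genes, aligned by TSS, also had more after the start, 1.26 at 150 bp after it against 0.631 at 150 bp before it. The low point over the members was 0.260 without Dox and 0.0697 in MEFs at 12 hours. A second crest at 550 bp upstream, 1.86 at 3 hours, lies where the partner of a divergent pair has its coding sequence. HA-H3.3 at 6 hours reached 5.92 at 250 bp and stayed above the genome mean in the same trough, at 1.08. Its intervals are 400 bp long and those of HA-Macro 150 bp, so the depths of the 2 troughs cannot be compared.

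**Figure D3:**
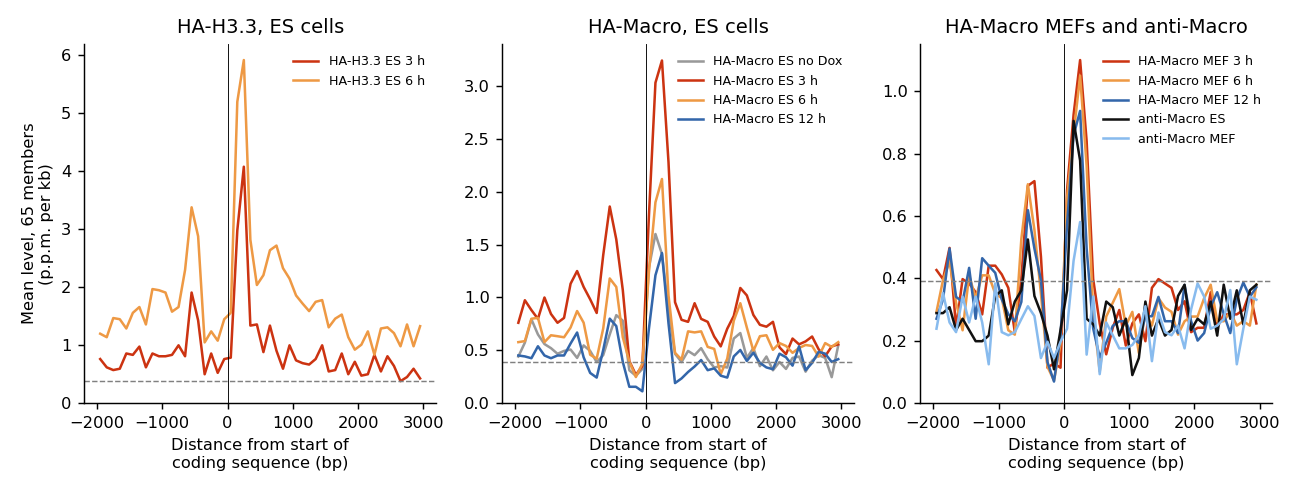
Mean level (p.p.m. per kb, 100 bp bins) against distance from the start of the coding sequence for the 65 members with 1 coding exon, for HA-H3.3, for HA-Macro in ES cells, and for HA-Macro in MEFs with anti-Macro; the dashed line is the genome mean. HA-Macro in ES cells peaks at 3.24 after the start at 3 hours and at 1.42 at 12 hours, with a trough before the start in every HA-Macro library.

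The pairs whose shared promoters are printed above, which were chosen after their values were seen, give the time course at single loci. From the outer end of one coding sequence to that of the other, Hist2h2ac and Hist2h2be had 9 HA-Macro intervals in untreated ES cells, 38 at 3 hours, 18 at 6 hours and 8 at 12 hours. For Hist1h2ae and Hist1h2bg the counts were 15, 28, 25 and 10, and for Hist1h2ad and Hist1h2bf 17, 40, 24 and 17. Scaled to library totals and length, the levels from no Dox to 12 hours were 0.701, 2.11, 0.989 and 0.416 p.p.m. per kb for the first pair, 1.16, 1.55, 1.37 and 0.517 for the second, and 1.37, 2.30, 1.37 and 0.917 for the third, whose 6 hour level was thus no higher than that without Dox. The log2 ratio of 12 to 3 hours was -2.34 (-3.65 to -1.22) for the first, -1.58 (-2.79 to -0.49) for the second and -1.33 (-2.24 to -0.48) for the third. Over the 12 pairs it ranged from -2.34 to -0.61 (Hist1h2ao and Hist1h2bq, -1.45 to 0.20), and Hist1h2an with Hist1h2bp was at -0.80 and Hist1h2ak with Hist1h2bn at -0.87. The copy of the highest pair, Hist1h2ap with Hist1h2br, was at -1.36 (-2.33 to -0.45), and these copies share reads at random.

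Over all members the 12 hour level in ES cells, as a share of the library total, was lower than the 3 hour level. The absolute amount of HA-Macro on these genes was not measured. The paper expects relative enrichment to fall at fast-exchanging loci as tagged histone builds up across the rest of the genome. The pooled log2 ratio was -0.89 (-0.98 to -0.79; 1395 against 2416 intervals) over gene windows and -1.30 (-1.42 to -1.17) over coding windows. In the TSS window, 50 of 66 members were 2-fold or more lower, beside 28.7% of all protein-coding genes, and 0 were 2-fold higher, beside 5.95%. The median was -1.31 for members and -0.52 for all genes, and 65 of 66 members were below 0. Among the 18 members under 20% repeated words, 14 were 2-fold lower, with a median of -1.35. Against the 6 hour time point, 19 of 66 members were 2-fold lower at 12 hours, beside 10.0% of all genes, the medians were -0.71 and -0.25, and the pooled ratio over gene windows was -0.50 (-0.60 to -0.40). The direction was thus the same without the library that stands apart, while the size was smaller.

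The H3 genes had the lowest ratio of the 5 classes. Over coding windows the log2 ratio of 12 to 3 hours was -1.86 (-2.18 to -1.56) for H3 genes, -1.55 (-1.90 to -1.22) for H4, -1.21 (-1.67 to -0.77) for H1, -1.20 (-1.40 to -0.99) for H2A and -0.95 (-1.16 to -0.75) for H2B. The coding window of Hist2h2bb takes in an intron, and without this gene H2B was at -1.20 (-1.43 to -0.97) and all members at -1.40 (-1.53 to -1.27). The interval of H3 does not reach those of H2A and H2B, with or without Hist2h2bb, while that of H4 overlaps H2A's and, without Hist2h2bb, H2B's. These intervals leave out the spread between genes, and single genes of the classes overlapped. By gene window H3 genes ran from -2.57 (Hist1h3b) to -1.21 (Hist2h3b), while the H2A gene Hist1h2ae was at -1.92. A difference between classes was not tested. From 6 to 12 hours the ratio was -1.28 (-1.61 to -0.96) for H3, -0.88 (-1.26 to -0.52) for H4, -0.69 (-1.17 to -0.21) for H1, -0.56 (-0.79 to -0.34) for H2A and, without Hist2h2bb, -0.64 (-0.88 to -0.39) for H2B. The H3 interval again lies below those of H2A and H2B, and it overlaps those of H4 and H1. H3 and H2A windows had 3.84 and 3.71 times the genome mean in HA-Macro at 3 hours and H1 windows 2.14, and at 6 hours they had 2.56, 2.39 and 1.48. The H1 genes also have the fewest repeated words. Across members HA-Macro rose with the share of repeated words (Spearman 0.38 at 3 hours and 0.49 at 6 hours). The part of repeated words in the class levels was not tested.

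The lowest ratios were those of single genes with few intervals. Hist1h3b, an H3 gene, had 17 intervals in untreated ES cells and 39, 27 and 7 after 3, 6 and 12 hours, a ratio of -2.57 (-3.98 to -1.39). Hist1h4j, an H4 gene, had 8, 26, 10 and 5, a ratio of -2.47 (-4.21 to -1.07), and Hist1h3c had 9, 35, 20 and 7, a ratio of -2.42 (-3.83 to -1.22). Hist1h3i, another H3 gene, had 9, 40, 30 and 8 and the same ratio of -2.42 (-3.72 to -1.30). At the other end Hist1h1t had 13, 15, 14 and 19 intervals, a ratio of 0.25 (-0.81 to 1.33). It was the one H1 gene of 6 whose ratio was not below 0. Hist1h2be had a ratio of 0.21 (-0.01 to 0.44) and Hist2h2bb 0.02 (-0.42 to 0.45), and both have annotated windows far longer than a histone coding sequence. Without Hist1h2be the pooled ratio was -1.14.

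**Figure D4:**
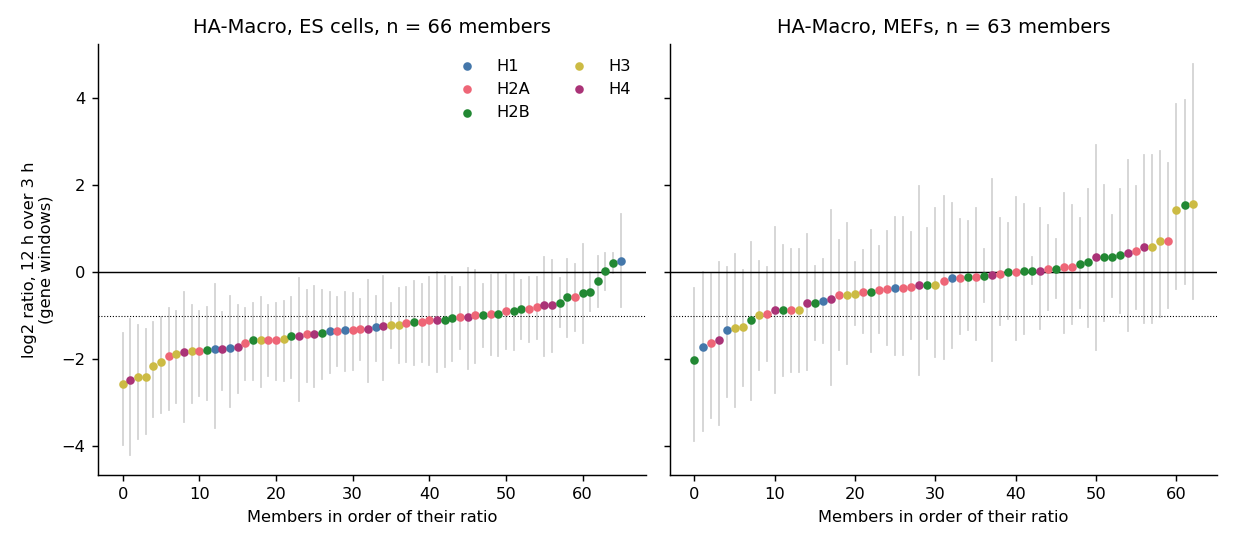
log2 ratio of HA-Macro at 12 hours over 3 hours (y axis) for each member with at least 10 intervals, in order of the ratio (x axis), over gene windows in ES cells (n = 66) and MEFs (n = 63); grey lines are 95% counting intervals and the dotted line is 2-fold lower. In ES cells the points run from -2.57 to 0.25, in MEFs from -2.02 to 1.58.

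The untreated cells gave a second reference for the time course. From no Dox to 3 hours the pooled log2 ratio was 0.78 (0.68 to 0.89). Around the TSS 25 of 66 members were 2-fold or more higher, beside 33.6% of all genes, with medians of 0.89 and 0.65, and 0 were 2-fold lower, beside 5.12%. Over the gene windows of genes of at most 3 kb it was 23 of 60 members, beside 17.0% of all genes of that length. How the members compare with other genes thus depends on the windows and genes compared. Both changed together here, and their separate parts were not tested. With the 6 hour library the pooled ratio was 0.39 (0.28 to 0.51) and the medians were 0.36 for members and 0.37 for all genes. From no Dox to 12 hours the pooled ratio was -0.10 (-0.22 to 0.02) over gene windows and -0.38 (-0.53 to -0.23) over coding windows. Here 13 of 66 members were 2-fold lower, beside 7.06% of all genes, and 1 was 2-fold higher, beside 13.0%. The median was -0.40 for members and 0.12 for all genes, so the 2 medians fell on opposite sides of 0.

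Mean HA-Macro levels in ES cells over 3, 6 and 12 hours ranged within each class. By gene window the highest H2A gene was Hist2h2aa2, at 1.59 p.p.m. per kb, and the lowest Hist3h2a, at 0.626. H2B genes ran from 0.533 (Hist1h2be) to 1.16 (Hist1h2bk), H3 genes from 0.723 (Hist1h3f) to 1.14 (Hist2h3c1), H4 genes from 0.525 (Hist1h4a) to 0.863 (Hist1h4h) and H1 genes from 0.376 (Hist1h1b) to 0.837 (Hist1h1e). The copies Hist2h2aa1 and Hist2h2aa2 had 52 and 60 intervals at 3 hours and 27 and 26 at 12 hours.

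In MEFs the pooled HA-Macro signal over gene windows was below the genome mean at each time. The levels over gene windows were 0.947 times the genome mean at 3 hours, 0.894 at 6 hours and 0.837 at 12 hours, and over coding windows 1.13, 1.02 and 0.905. The coding sequences alone had 2.31, 2.21 and 1.85 times, against 3.35 times in untreated ES cells. The MEFs have no library without Dox, so how much of their peak is HA-Macro cannot be told apart from signal present before induction. The 12 over 3 hour log2 ratio was -0.18 (-0.32 to -0.04). Around the TSS 8 of 61 members were 2-fold or more lower, beside 11.3% of all genes, and 3 were higher, beside 6.56%, with medians of -0.36 and -0.14. Over the gene windows of genes of at most 3 kb, 8 of 57 were lower, beside 6.58% of all genes of that length, and 3 were higher, beside 6.87%. At 250 bp after the start of the coding sequence the level was 1.10, 1.05 and 0.937 p.p.m. per kb at 3, 6 and 12 hours, where all protein-coding genes, aligned by TSS, had 0.695, 0.682 and 0.600. In the common TSS window, the medians of members and of all genes were equal, at 0.431, 0.38 and 0.369 p.p.m. per kb. There 28, 31 and 28 of 66 members lay above the median of all genes. The isolated gene Hist1h2al had 2.75, 3.71 and 2.06 times the genome mean, from 16, 21 and 22 intervals. Its coding window has 59.7% repeated words, so reads shared at random with other copies may be among them.

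Most single members had wide intervals at this depth in MEFs. The lowest ratio was that of Hist1h2bn, -2.02 (-3.89 to -0.37) from 5 against 11 intervals, followed by Hist1h1e at -1.73 (-3.65 to 0.01) and Hist1h2ak at -1.62 (-3.36 to -0.01). The highest were Hist1h3a at 1.58 (-0.61 to 4.80), Hist1h2bf at 1.54 (-0.27 to 3.96) and Hist1h3g at 1.44 (-0.38 to 3.87). The intervals of these 3 genes include 0. By class, H1 coding windows had -1.09 (-1.77 to -0.43) from 37 against 43 intervals, and those of H2A, H2B, H3 and H4 lay between -0.48 and -0.14 with intervals that include 0. The difference between ES cells and MEFs in the 12 over 3 hour ratio was not tested, since there is 1 library per point.

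The MEF level was below the ES level at each time, most at 3 hours. Each library is scaled to its own total. The paper states that, for the average MacroH2A2 promoter peak, normalization overstates the decrease in MEFs. The pooled log2 ratio of MEF to ES was -1.29 (-1.41 to -1.16) at 3 hours, -0.98 (-1.12 to -0.85) at 6 hours and -0.58 (-0.70 to -0.46) at 12 hours. Around the TSS 52 of 66 members were 2-fold or more lower in MEFs at 3 hours, beside 44.6% of all genes, and 38 of 66 at 6 hours, beside 32.9%. At 12 hours 13 of 65 were lower, beside 26.3%, and 1 was higher, beside 6.28%. The medians were -1.54 against -0.82 for all genes at 3 hours, -1.16 against -0.55 at 6 hours and -0.43 against -0.46 at 12 hours. The pooled ratio at 12 hours was -0.12 relative to the median of all genes and -0.20 relative to genes of like GC content. These 2 values set a ratio pooled over gene windows against medians from the TSS window.

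The anti-Macro signal over the module was below the genome mean in both cell types when pooled. The level over gene windows was 0.867 times the genome mean in ES cells and 0.637 in MEFs. For the members under 20% repeated words it was 1.23 (1.04 to 1.45) and 0.774 (0.659 to 0.902). In the TSS window the median of the 18 was 1.30 times in ES cells, against 2.00 for all protein-coding genes, and 5 of 18 lay above the median of all genes. In MEFs it was 0.690 against 1.15, with 3 of 18 above. Over all 66 members the medians were 0.802 and 0.575. In the bins after the start of the coding sequence anti-Macro in ES cells reached 0.905 p.p.m. per kb, where all protein-coding genes, aligned by TSS, reached 1.34.

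From ES cells to MEFs the anti-Macro log2 ratio over gene windows was -0.44 (-0.62 to -0.27). In the TSS window 15 of 36 members with enough intervals were 2-fold or more lower, beside 37.5% of all genes, and 4 were higher, beside 4.28%. The median was -0.56 for members and -0.80 for all genes, so the sign of a member's ratio relative to other genes depends on the centring. Of the 15 members under 20% repeated words that had enough intervals, 9 were lower, with a median of -1.02. The lowest ratios were those of Hist2h3b at -2.54 (-5.04 to -0.58), Hist3h2a at -2.08 (-3.59 to -0.74) and Hist1h1t at -1.80 (-3.50 to -0.28). The highest were Hist3h2ba at 2.01 (-0.12 to 5.19), Hist1h2ae at 1.52 (-0.71 to 4.75) and Hist1h2al at 1.20 (-0.69 to 3.66), all with intervals that include 0. The 2 Hist3 genes, which lie within 7.76 kb, thus had 17 and 7 intervals (Hist3h2a) and 2 and 14 (Hist3h2ba) in ES cells and MEFs.

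The pair Hist1h2aa and Hist1h2ba, which encode testis-specific H2A and H2B, had the highest anti-Macro levels of the members. In ES cells the margin over the next member was small and rested on few intervals. Over their shared block the level was 2.60 times the genome mean in ES cells and 2.98 in MEFs, where the other Hist1 blocks of several members stood at 0.363 to 0.942 and 0.312 to 0.677 over gene windows. All members under 20% repeated words, the pair included, had 1.23 and 0.774 times. Hist1h2aa had 0.846 p.p.m. per kb in ES cells and 1.46 in MEFs, from 10 and 30 intervals, and Hist1h2ba 0.931 and 1.12, from 11 and 23. The pair has 3.54% and 12.7% repeated words. HA-Macro at the pair went through 12, 42, 29 and 21 intervals over coding windows in ES cells from no Dox to 12 hours, a 12 over 3 hour ratio of -1.09 (-1.92 to -0.31) and a 12 over 6 hour ratio of -0.54 (-1.43 to 0.32), and HA-H3.3 differed by 0.23 (-0.72 to 1.23) between 3 and 6 hours. In MEFs HA-Macro over the pair was 1.71, 2.23 and 1.86 times the genome mean. Hist1h1t, the third testis-specific member, had 0.739 p.p.m. per kb anti-Macro in ES cells and 0.212 in MEFs. The other members ranged up to 0.790 in ES cells (Hist2h3b) and 0.587 in MEFs (Hist1h2al).

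Along the Hist1 cluster, HA-Macro in ES cells at 3 hours was 1.65, 2.74 and 1.44 times the genome mean over the blocks of 18, 5 and 29 members, 1.55, 1.84 and 1.39 at 6 hours, and 1.30, 1.19 and 1.11 at 12 hours. These whole blocks include the DNA between members. Over member gene windows alone the blocks of 18 and 5 had 2.66 and 3.28 times at 3 hours. HA-H3.3 at 6 hours was 2.18, 5.65 and 2.62 over the 3 whole blocks. The block of 18 holds all 5 members with 0 HA-H3.3 intervals at 6 hours (Hist1h2ao, Hist1h2ap, Hist1h2bq, Hist1h2br and Hist1h4m), whose part in its level was not tested. The gap of 1486 kb between the second and the third block holds mostly Vmn1r vomeronasal receptor genes. Pooled over its length it had 0.885 times in HA-H3.3 at 6 hours, 0.909 in HA-Macro ES cells at 3 hours and 1.00 at 12 hours. The HA-H3.3 value mixes unlike parts. Across the 32 Vmn1r genes the median at 6 hours was only 0.219 p.p.m. per kb, below the genome mean of 0.391. By distance from the first member window, 10 kb bins at 1180 to 1260 kb held 0 to 0.0376. Those at 1680 to 1800 kb, beside the third block, held 0.479 to 1.83. The shorter gap between the first and the second block had 2.73 times in HA-H3.3 at 6 hours, so that mark was not limited to the members. Inside the blocks, between coding windows, HA-Macro in ES cells was 1.24 times at 3 hours, 1.34 at 6 hours and 1.20 at 12 hours, a log2 ratio of 12 to 3 hours of -0.05 (-0.13 to 0.02) against -1.30 over the coding windows. Over coding windows the Hist2 members had 2.98 times at 3 hours and 1.53 at 12 hours, and the Hist3 members 2.23 and 1.36. Their 12 over 3 hour ratios were -0.96 (-1.22 to -0.70) and -0.72 (-1.49 to 0.03), and those of 12 over 6 hours -0.53 (-0.81 to -0.26) and -0.42 (-1.22 to 0.36). Without Hist2h2bb the Hist2 ratios were -1.46 (-1.79 to -1.13) and -0.81 (-1.17 to -0.46).

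**Figure D5:**
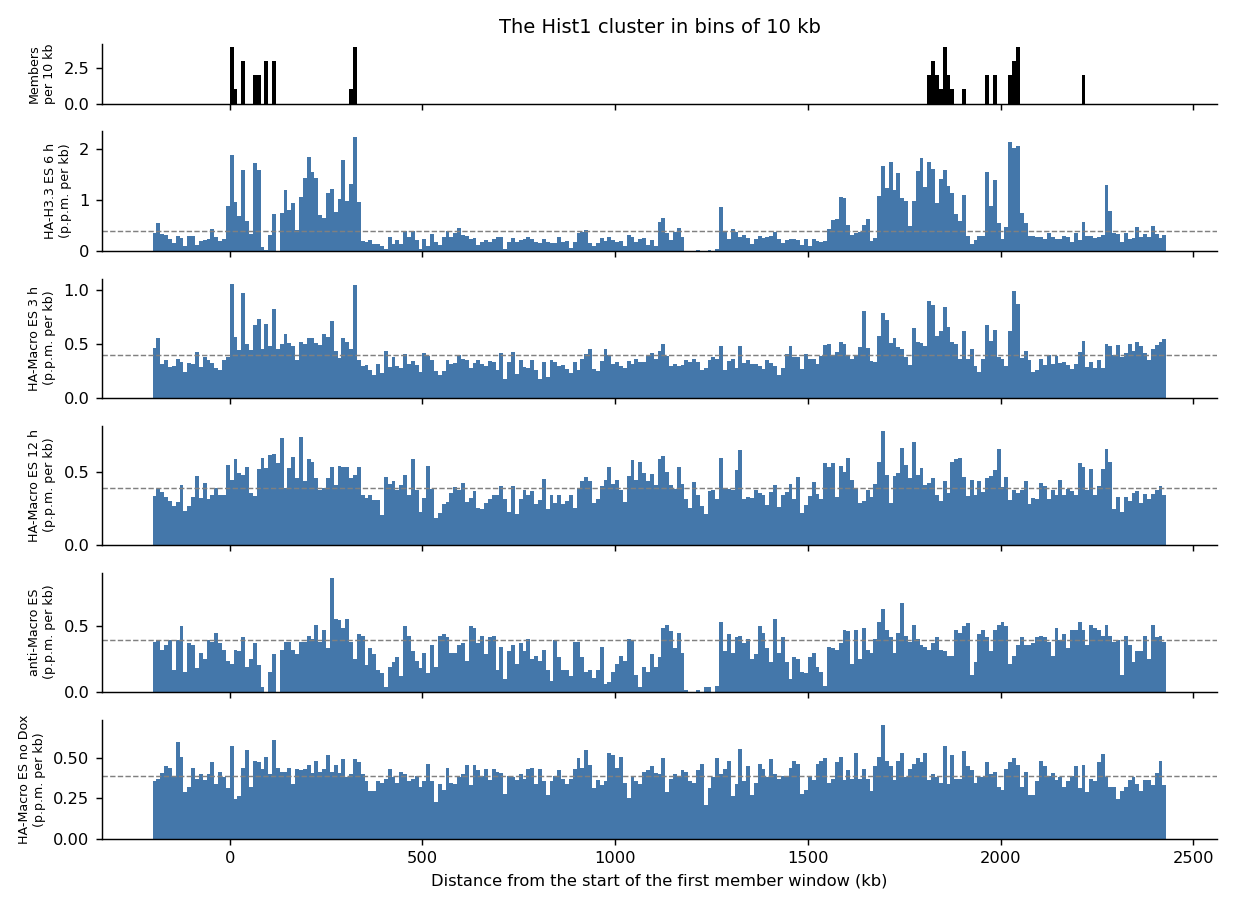
Level in bins of 10 kb (p.p.m. per kb, y axis) along the Hist1 cluster, by distance from the start of the first member window (kb, x axis), with the number of members per bin on top and the genome mean dashed. HA-H3.3 at 6 hours and HA-Macro at 3 hours stand above the mean in most bins with members; each panel has its own scale.

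Histone genes outside the module gave a reference. Of 12 listed histone genes outside the clusters (variant genes such as H3f3a, H3f3b, H2afx and H2afz, and the lone H4 gene Hist4h4), 11 were in the annotation. In ES cells 7 of 11 had a 2-fold or lower 12 over 3 hour HA-Macro ratio in the TSS window, beside 28.7% of all genes, with a median of -1.04. At 12 over 6 hours it was 1 of 11, near the 10.0% of all genes, with a median of -0.45. H3f3a, which encodes H3.3, had -1.01, H2afz, which encodes H2A.Z, had -1.33, and H3f3b, the second H3.3 gene, had -0.25. H2afy2, which encodes MacroH2A2 itself, had -1.04, and Hist4h4 had -0.82. From no Dox to 12 hours 0 of the 11 were 2-fold lower, beside 7.06% of all genes, and the median was -0.08. The genes for transcription and processing of histone mRNA (Npat, Slbp, Lsm11 and 9 others) gave 7 of 12 and a median of -1.05 at 12 over 3 hours, and 1 of 11 and -0.34 at 12 over 6 hours. Npat, the histone locus body factor, had -0.94 and Slbp, the stem-loop binding protein, had -0.88. Anti-Macro in ES cells had a median of 2.81 times the genome mean over the list of histone genes outside the clusters and 2.00 over the processing list, with HA-H3.3 at 6 hours at 6.72 and 4.72 times.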

How the data were processed

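The authors collapsed reads of the same sequence while keeping their occurrences, mapped them to mm9 with Bowtie (version 1.0 per the submitters' processing notes), allowed at most 1 mismatch, chose 1 random location for a read that mapped to several, and extended reads to 150 bp. The deposited BED files hold a chromosome, a start and an end per interval, with no strand or signal column, and in 4 libraries the intervals are 400 bp. Each anti-Macro library combines 2 replicates by its title.

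Intervals with the same coordinates were counted once (0.462% to 6.00% were repeats), the midpoint was used, and libraries were scaled to their total of distinct intervals on chromosomes 1 to 19, X and Y. The deposited files give no other normalization. Genes came from GENCODE vM1 and sequence from the mm9 genome. Pooled values use the union of member windows, since 41 member windows overlap another. Ratios of single genes needed 10 intervals in both libraries together, and a library at 0 entered at 3 counts. Intervals are 95% exact Poisson (levels) or exact conditional binomial (Clopper-Pearson, ratios) and cover counting error only. PCR reads without molecular identifiers are not independent molecules. The median and the counts past 2-fold use the TSS window for all protein-coding genes.

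Repeated words were counted as 32 bp words of the coding window that occur again anywhere in the genome on either strand. Named genes are, by rule, the highest and lowest HA-Macro ES member of each class, the 3 extremes of each main ratio, the 3 highest for HA-H3.3, the testis-specific and Hist3 members, and the Hist2h2aa copies. Hist1h2ao, Hist1h2ap, Hist1h2bq, Hist1h2br, Hist1h4m and Hist1h4n, and the printed pairs, were named after their values were seen. Members and lists were chosen with earlier results of these data known. The coding windows, the splits at 20% and 50% repeated words and the values without Hist1h2be or Hist2h2bb were also chosen after seeing the data. Alternatives were other windows, scalings, member subsets and thresholds. Ratios were tested on simulated data. Python 3.11.15, numpy 2.4.6, scipy 1.17.1, pandas 2.3.3 and matplotlib 3.10.9 were used.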

Additional observations from a re-analysis of the deposited data

How the results depend on the processing

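No paired analysis was run. Each condition has 1 library, and the ES and MEF libraries of the same hours were not treated as pairs. Of 101 alternative pooled log2 ratios, 65 stayed inside the counting interval, 34 moved outside it and 2 reversed. The cause was not tested. The medians of all genes and of genes of like GC content come from the TSS window. They were subtracted from member ratios pooled over gene windows, so the 2 sides differ in window. Within the TSS window, the ES medians of 12 over 3 hours were -1.31 for members and -0.52 for all genes. For ES cells 12 over 3 hours (-0.89) the values were -1.37 within 600 bp of the TSS, -1.41 for members whose window overlaps no other, -1.08 for 1 member per group of coding sequences at least 98% identical, -1.30 over coding windows, -1.14 without Hist1h2be, -1.17 without members with at least 20% repeated words, -0.36 after subtracting the median of all genes, -0.50 after subtracting that of genes of like GC content and -0.50 against 6 hours. For MEFs 12 over 3 hours (-0.18), in the order TSS, no overlap, identity and repeated words, they were -0.37, -0.32, -0.39 and -0.38. For ES cells 3 hours over no Dox (0.78) they were 1.00 (TSS), 0.95 (no overlap), 0.91 (coding windows), 0.13 (all genes), 0.26 (like GC) and 0.39 (6 hours). For ES cells 12 hours over no Dox (-0.10) they were -0.37 (TSS), -0.46 (no overlap), -0.26 (identity), -0.38 (coding windows), -0.25 (Hist1h2be), -0.39 (repeated words), -0.22 (all genes) and -0.24 (like GC). For MEF over ES at 12 hours (-0.58) they were -0.44 (TSS), -0.41 (no overlap), -0.12 (all genes) and -0.20 (like GC). Anti-Macro MEF over ES (-0.44) was -0.67 (repeated words) and reversed to 0.36 (all genes) and 0.07 (like GC). HA-H3.3 6 over 3 hours (0.90) was 0.34 (all genes) and 0.33 (like GC).

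Counts of members past the fold also moved. At 1.5-fold, with the share of all genes in parentheses, MEFs 12 over 3 hours gave 19 lower (26.6%) in place of 8 and 5 higher (14.4%) in place of 3, ES cells 3 hours over no Dox 51 higher (53.0%) in place of 25, 12 hours over no Dox 22 lower (14.8%) in place of 13 and 2 higher (26.9%) in place of 1, MEF over ES at 12 hours 27 lower (43.7%) in place of 13 and 3 higher (13.8%) in place of 1, and HA-H3.3 49 higher (48.7%) in place of 27. With at least 20 intervals the lower counts were 1 of 27 members in MEFs (5.88%), 7 of 51 for 12 hours over no Dox (3.35%), 6 of 45 for MEF over ES (23.5%) and 1 of 3 for anti-Macro (42.1%), and the higher counts in MEFs and for anti-Macro were 0 (4.10% and 1.63%). The ES count of 50 lower at 12 over 3 hours was 62 at 1.5-fold (47.0%) and 50 with at least 20 intervals (32%). In the gene windows of genes of at most 3 kb it was 45 of 60, beside 14.4% of all genes of that length. There 9 of 60 were lower at 12 hours over no Dox (8.55%), 14 of 59 for MEF over ES (19.7%) and 12 of 33 for anti-Macro (19%), and 25 of 57 were higher for HA-H3.3 (12.6%).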
